A study of Pinus pinaster with 14 samples.

Results

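The 150 transcripts described here were detected in all 5 root libraries of maritime pine (Pinus pinaster) seedlings, and in each of those libraries they stood above the highest of 7 shoot libraries. They were chosen by these same values from the 23493 transcripts of the table, of which they are 0.638%. Seedlings of the Oria provenance, grown in soil and 1 month old, were dissected with a laser into 14 tissues. Each tissue was a single library of amplified cDNA read by pyrosequencing, so no tissue had a replicate, and the sources used here do not say how many seedlings went into a library. The root libraries were root cortex, root vascular tissue, developing root cortex, developing root vascular tissue and root meristem. The shoot libraries of the rule were emerging needles, mesophyll and vascular tissue of young needles, mesophyll and vascular tissue of cotyledons, and cortex and vascular tissue of the hypocotyl, the stem between root and cotyledons. The apical meristem and the hypocotyl pith were not used to choose the transcripts.

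A root takes up water and mineral ions, and passes them through the cortex, its ground tissue, to the vascular cylinder, which exchanges water and sugars with the shoot. New cells come from the root meristem near the tip, and developing root lies between the meristem and the mature part. The apical meristem of the shoot is also a group of dividing cells, from which needles and stem arise, whereas pith is ground tissue inside the stem. The deposited identifiers are not paired with gene names, so no function can be given to any of the 150 transcripts, and the tissue labels could not be checked against marker genes.

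Hypocotyl cortex was the shallowest library, with 519134 recovered reads, and root vascular tissue the deepest, with 1536389. Levels are normalised read counts (CPM) on the authors' scale, on which 1 read was worth between 0.652 CPM in root meristem and 3.76 CPM in hypocotyl cortex. In bulk tissue, fewer cells with a transcript and less of it per cell cannot be told apart. In 4 ordered pairs of libraries no transcript counted 200 times or more in the first was missing from the second. These were young needle vascular tissue with hypocotyl vascular tissue, cotyledon mesophyll with pith, and hypocotyl cortex and root cortex each with the apical meristem. Whether reads of these pairs were shared between libraries was not tested. Summed levels in the second library of a pair, and some counts, are therefore also given after reads of the pair were taken off. The amount was the 5th percentile of the read ratio, 4.45% for root cortex to 23.3% for cotyledon mesophyll. Other pairs, some within root, fell just short of this cutoff, and no reads were taken off for them. In root meristem with developing root cortex, and with developing root vascular tissue, 1 of 1056 transcripts was missing, at read ratios of 6.30% and 8.13%. In developing root cortex with root meristem it was 1 of 433, at 8.80%.

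For each transcript the score was the lowest root value minus the highest shoot value, both as log2(CPM + 5). A score above 0 was reached by 302 transcripts. Of these, 227 also had root values, plus 5, within a 16-fold range and a highest value less than 4 times the second highest, and the 150 highest scores were kept. The median score was 0.53, which means that the lowest root value, plus 5, was 1.45 times the highest shoot value. A score of at least 1 was held by 34 members, and 8 reached 2. The margin between lowest root and highest shoot library was thus small for most of the list, although it separated all 5 root libraries from all 7 shoot libraries. These scores carry no test, because they chose the members.

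The highest score, 4.08, belonged to unigene26344. Its level was 323 CPM in root cortex, 530 in root vascular tissue, 79.6 in developing root cortex, 312 in developing root vascular tissue and 191 in root meristem. It had no reads in the 7 shoot libraries or in the pith, and stood at 6.65 CPM, 5 reads, in the apical meristem. The next, unigene30397 with a score of 3.42, stood at 148 CPM in root cortex, 2214 in root vascular tissue, 147 in developing root cortex, 639 in developing root vascular tissue and 220 in root meristem. Among shoot libraries it was listed above 0 in emerging needles, at 9.21 CPM, and in hypocotyl vascular tissue, at 1.12, and the apical meristem had 58.5. Its root vascular value stood apart from the other 4 root libraries.

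At the other end of the list, unigene20246 ranked last with a score of 0.24. Its lowest root library, root meristem, had 75.6 CPM and its highest shoot library, emerging needles, 63.1 CPM. Just outside the list, unigene23556 had 332 CPM in its lowest root library and 280 in its highest shoot library, again a score of 0.24. No gap in the scores separated members from the transcripts ranked next.

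Counting error was large beside these margins. The median member had 11 reads in its lowest root library, 68 members had fewer than 10 there and 38 had 3 or fewer. The exact 95% Poisson intervals of the lowest root value and the highest shoot value, which cover counting error only, overlapped for 122 of the 150. Where a member had no shoot reads, the upper limit for no reads in hypocotyl cortex, the shallowest library, stood in for the shoot. Over the 5 root libraries together, members had between 21 and 11509 reads, with a median of 242.5.

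The members divided into those that the shoot libraries lacked and those that they held at a lower level. No reads were found in any of the 7 shoot libraries for 45 members (30%), against 7.09% of all transcripts. Reads in all 7 were held by 27 members (18%), and by 3185 of all 23493 transcripts. The score subtracted the highest shoot value, so the choice favoured members without shoot reads and neither difference is read as a result. The highest shoot value was at least 10 CPM for 73 members and at least 100 CPM for 21. These counts were not taken over all transcripts and describe the list only. Most of the list was therefore present in shoot and higher in root, and "absent from shoot" describes 45 of 150 members at this depth. The 45 had lower levels in root: the median of their root medians was 14.8 CPM, compared with 82.9 CPM for the other 105. A member with shoot reads needed root values above its highest shoot value, so the choice favoured this direction too. The difference in level is not read as a result. For 43 of the 45, the Poisson interval of the lowest root value overlapped the upper limit for no reads in hypocotyl cortex.

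Both libraries outside the rule narrowed this group further. Of the 45, 21 had reads in the apical meristem and 4 in the pith, and 23 had no reads in any of the 9 libraries outside root. The 23 had between 37 and 770 root reads each, with a median of 87, and 2 of them had at least 10 reads in every root library. Over all transcripts measured, 35 had reads in all 5 root libraries and none elsewhere. The remaining 12 were outside the limits on root spread and so were not members. An absence of reads allows up to 3 reads per library, which is between 2.13 CPM in emerging needles and 11.3 CPM in hypocotyl cortex over the 9 libraries.

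**Figure D1:**
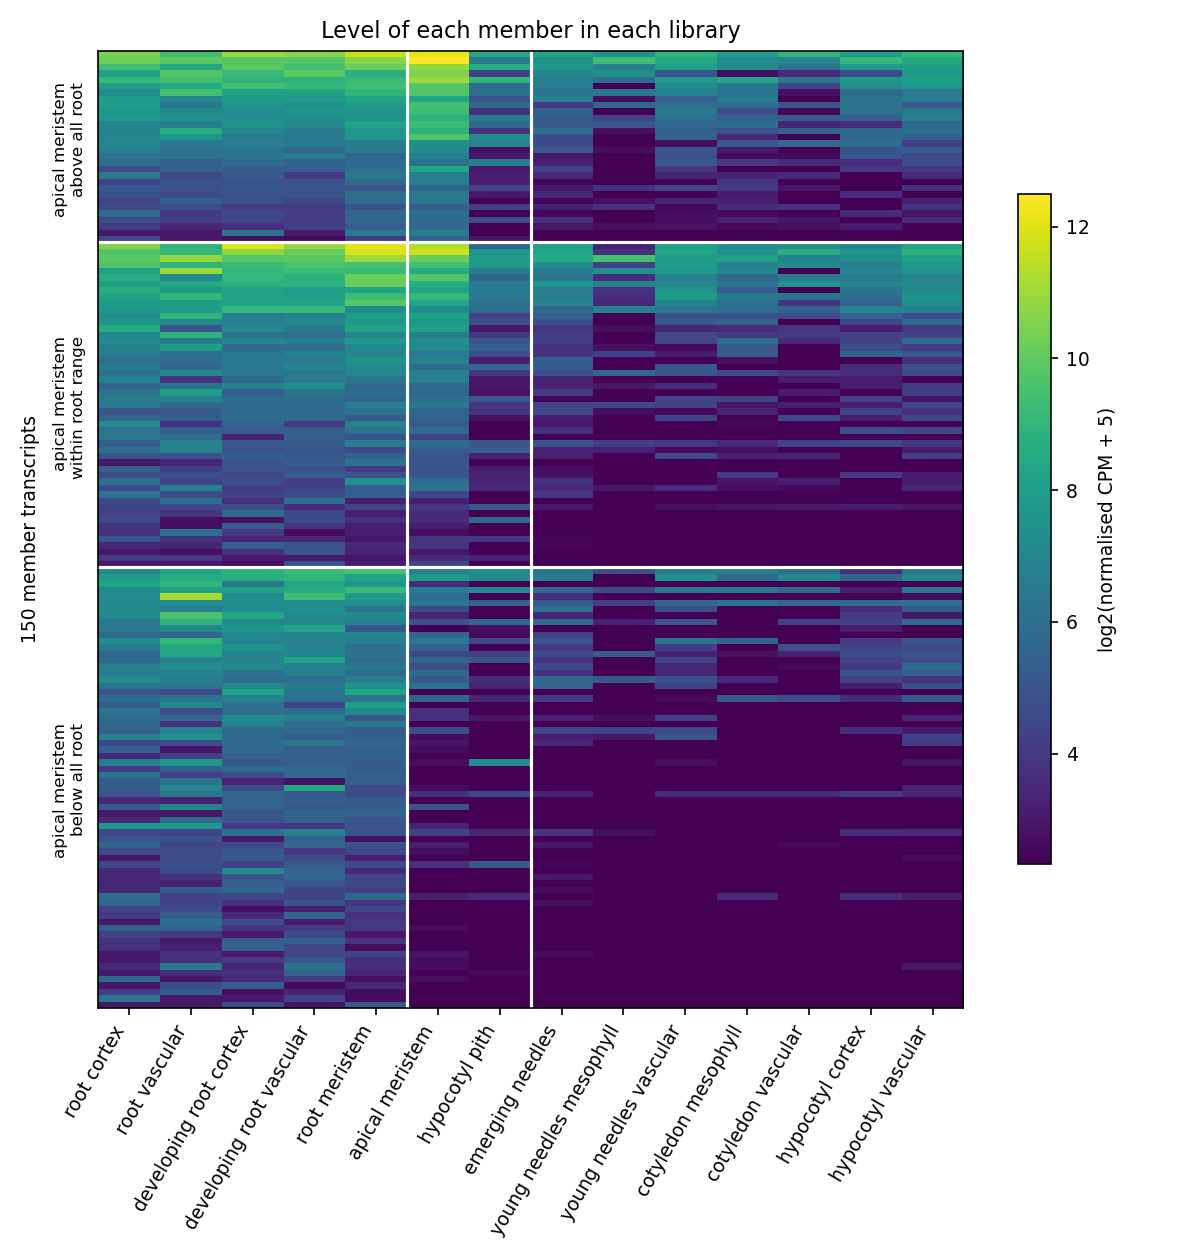
Level of each of the 150 members (rows) in each of the 14 libraries (columns), as log2(normalised CPM + 5). White vertical lines separate the 5 root libraries, the 2 libraries not used by the rule and the 7 shoot libraries, and white horizontal lines separate members whose apical meristem value lay above all 5 root libraries (30), within their range (51) or below all of them (69).

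Summed over the 150 members, the level was 25394 ± 5464 CPM in root (SD, n = 5 libraries) and 3977 ± 1224 CPM in shoot (SD, n = 7), a ratio of 6.39 that the rule fixed in direction. The root libraries held 19256 CPM in root cortex, 25590 in root vascular tissue, 25054 in developing root cortex, 22971 in developing root vascular tissue and 34097 in root meristem. The shoot libraries ranged from 2675 CPM in cotyledon vascular tissue to 5929 in hypocotyl vascular tissue, with emerging needles at 4299. After the reads of its pair were taken off, hypocotyl vascular tissue had 4419 CPM, and young needle vascular tissue, at 5156, was the highest. The sum lay in few transcripts: the 5 members with the most reads held 34.9% of all member reads in root.

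As a share of all reads in a library, the members took up 1.12% in root cortex and 1.18% in root vascular tissue. The share was 3.02% in developing root cortex, 3.24% in developing root vascular tissue and 4.48% in root meristem. The 5 root libraries thus differed more in share of reads than in normalised level. In the shoot libraries of the rule the share lay between 0.191% in hypocotyl cortex and 0.791% in young needle vascular tissue.

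The member with the most reads, unigene31073, stood at 1516 CPM in root cortex, 473 in root vascular tissue, 4240 in developing root cortex, 1815 in developing root vascular tissue and 4037 in root meristem. Its shoot values ran from 4.40 CPM in young needle mesophyll to 326 in hypocotyl vascular tissue, and the apical meristem had 2543 CPM and the pith 44.2. The second by reads, isotig01791, stood at 1391, 656, 1936, 1591 and 3266 CPM in the same root libraries in the same order. It was present throughout the shoot, at 178 CPM in young needle mesophyll to 550 in hypocotyl vascular tissue, and its score of 0.25 ranked 149. The most abundant members were therefore not those with the widest margin over shoot.

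**Figure D2:**
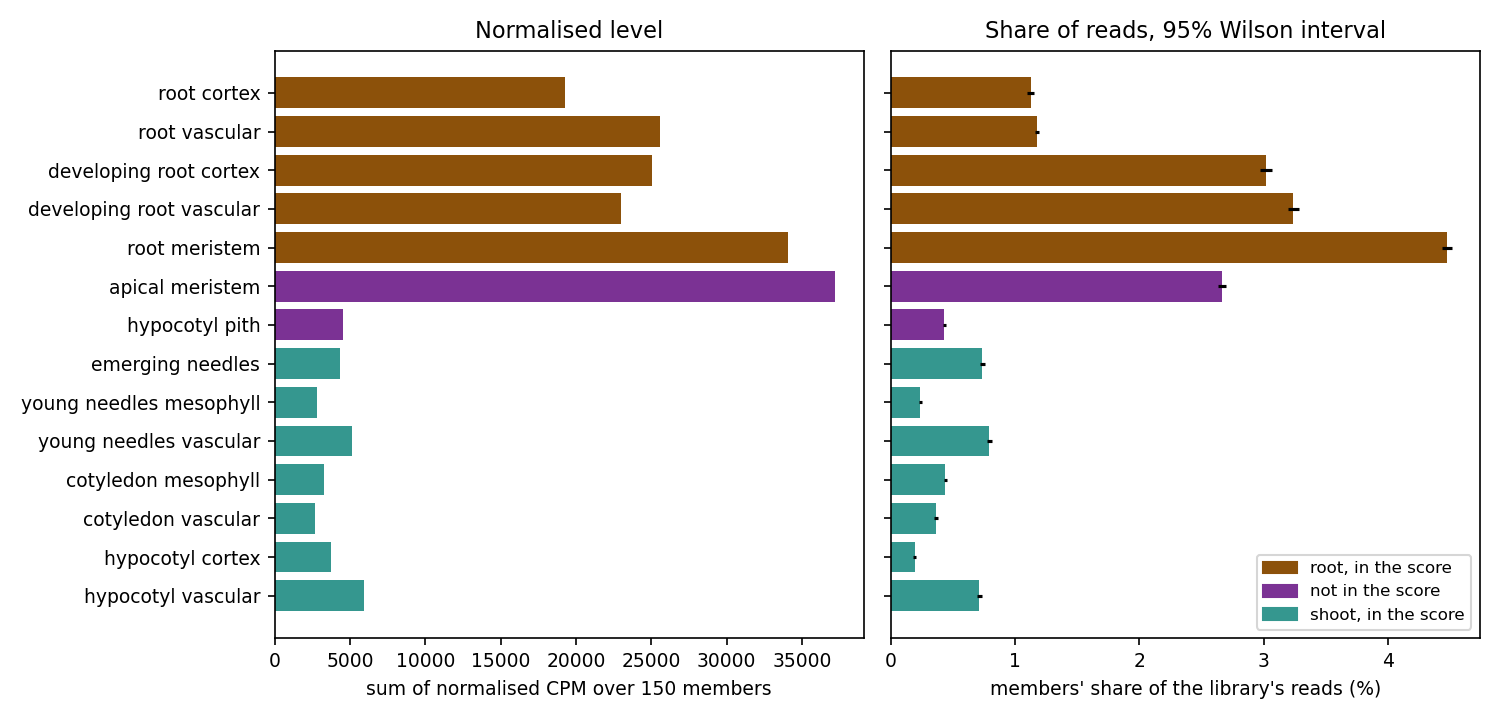
Summed normalised CPM of the 150 members (left) and their share of the reads of each library with its 95% Wilson interval (right), for 5 root libraries, 2 libraries not used by the rule and 7 shoot libraries. The apical meristem, at 37227 CPM and 2.66% of reads, lies with the root libraries, and the pith, at 4528 CPM and 0.430%, with the shoot libraries.

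The apical meristem, a shoot library that the rule did not use, held the members at a higher summed level than any root library and at a lower median level. Their sum there was 37227 CPM, 1.47 times the mean of the 5 root libraries. Their median was 33.9 CPM, against 50.2 to 56.2 CPM in the root libraries and 0 to 4.61 CPM in the 7 shoot libraries. Without the 5 members with the most reads the sum was 1.16 times the root mean and above 4 root libraries. Their share of its reads, 2.66% (95% Wilson interval 2.63 to 2.70%), was within the range of the root libraries. Taken by library total alone, without the authors' scaling factor, the sum was 1.02 times the root mean, with quantile normalisation it was 0.846 times, and in both cases it exceeded 2 of the 5 root libraries. After the reads of the library pairs were taken off, it was 1.45 times the root mean and above all 5. Its position relative to the root libraries thus depended on the scaling and on a few abundant members.

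Member by member, 121 of 150 had reads in the apical meristem, where 77.4% of all transcripts did. The value lay above the lowest root library for 81 members (54%) and above all 5 root libraries for 30 (20%). Among the 7185 transcripts with reads in all 5 root libraries the background on the authors' scale was 80.5% above the lowest and 19.9% above all 5. The count above all 5 was 11 with library totals and 17 with quantile normalisation. The rule had chosen high root values, so neither count is read against its background. The value lay above all 7 shoot libraries for 106 members (70.7%), where the background was 22.5%. The rule had kept the shoot values of the members low, and nothing beyond the count is read from this difference. The remaining 69 members were below all 5 root libraries in the apical meristem, and 29 had no reads there.

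The member with the highest apical meristem value, isotig02495, stood at 5758 CPM there. Its root values were 1199 CPM in root cortex, 980 in root vascular tissue, 904 in developing root cortex, 920 in developing root vascular tissue and 1581 in root meristem. Its pith value was 78.8 CPM, and its shoot values ran from 117 CPM in cotyledon vascular tissue to 643 in young needle mesophyll. The apical meristem value thus exceeded every root library, and all root libraries exceeded all shoot libraries of the rule. The second highest, isotig01791 at 4472 CPM, was also above its highest root library, root meristem at 3266 CPM.

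The pith, the other library outside the rule, held the members at a summed level within the range of the shoot libraries. Their sum there was 4528 CPM, or 0.430% of the reads. Reads were present for 85 members, where 70.1% of all transcripts had them, and the median member level was 2.88 CPM. The value lay above the lowest root library for 17 members, against a background of 68.1%, and above all 5 root libraries for 3, against 18.5%. It lay above all 7 shoot libraries for 25 members (16.7%), where the background was 14.3%. The rule had chosen high root values and low shoot values, so none of these 3 counts is read against its background. Cotyledon mesophyll, which the rule used, is the first library of the pair that includes the pith, and whether it is a separate measurement was not tested. After the reads of the pairs were taken off, the sum in the pith was 3668 CPM and 13 members remained above the lowest root library.

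The highest pith value among members was 501 CPM for unigene40592. Its root values were 557 CPM in root cortex, 673 in root vascular tissue, 482 in developing root cortex, 453 in developing root vascular tissue and 566 in root meristem, and the apical meristem had 1967 CPM. The second, unigene29542, stood at 373 CPM in the pith, with root values of 660, 354, 932, 725 and 1138 CPM in the same order and 1899 CPM in the apical meristem. In both, the pith lay within the range of the root libraries and the apical meristem above it.

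Set against each other, the members stood 8.22 times higher in the apical meristem than in the pith by their sums, where the sums over all transcripts differed by a factor of 1.33. With 5 CPM added, 61 members were at least 4 times higher in the apical meristem, against a background of 12.6%, and 2 were at least 4 times higher in the pith, against 12.2%. These backgrounds are over all 23493 transcripts, whereas every member had reads in all 5 root libraries. The rule also kept cotyledon mesophyll, paired with the pith, low and root cortex, paired with the apical meristem, high. The choice may have favoured this direction, so the distance from the backgrounds is not read as a result. Each side was a single library, so this comparison has no replicate check.

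**Figure D3:**
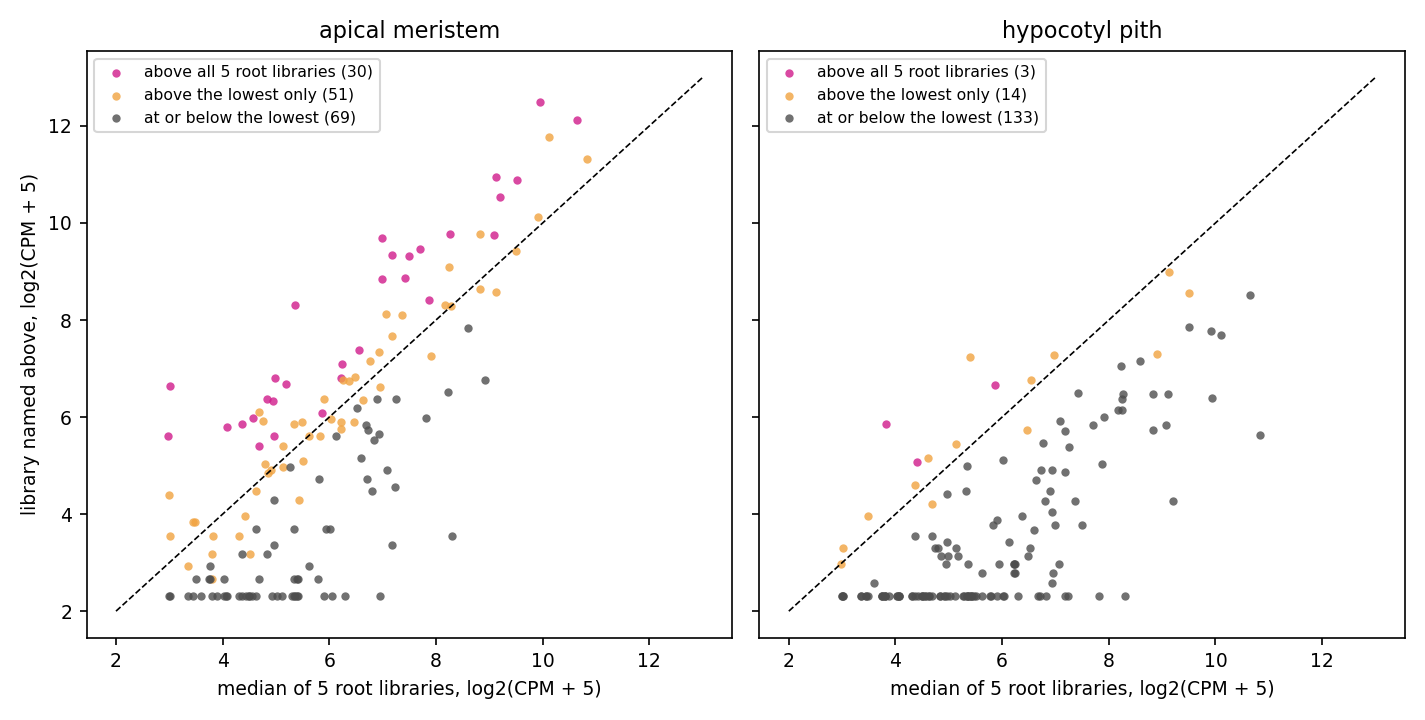
Level of each member in the apical meristem (left) and the hypocotyl pith (right) against its median over the 5 root libraries, all as log2(CPM + 5), with a dashed line at equality and colours for the position relative to the 5 root libraries. In the apical meristem 81 members lie above their lowest root library, and in the pith 17 do.

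The members that the apical meristem shared with root were more abundant in root and had more reads elsewhere in the shoot. These classes rest on the authors' scaling, as the counts above show. The median of the root medians was 79.5 CPM for the 30 members above all root libraries in the apical meristem, 54.9 CPM for the 51 within the root range and 35.5 CPM for the 69 below. Their median values in emerging needles were 17.0, 8.50 and 0 CPM, and in the pith 15.4, 9.62 and 0 CPM. The rule admitted higher shoot values only with still higher root values, which ties root and shoot levels of the members together. That these medians fall in parallel is therefore not read as a result. Among the 45 members with no shoot reads, 12 were above their lowest root library in the apical meristem and 2 above all 5, compared with 69 and 28 of the other 105. The 45 summed to 279 CPM in the apical meristem and 1573 CPM in the mean root library. The members without shoot reads were thus also low in the apical meristem, and the higher sum there came from the others. A lower level gives a lower chance of a read in any library, and its part in these differences was not tested.

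The list of 150 was rebuilt 7 times with a shoot library left out, so that each shoot library could be read in transcripts it had not helped to choose. Emerging needles stood above the lowest root library for 51 of 150 transcripts, where the background was 67.9%. The count was 39 in hypocotyl cortex (57.5%), 22 in young needle mesophyll (39.6%) and 20 in hypocotyl vascular tissue (77.2%), or 19 after the reads of its pair were taken off. It was 15 in cotyledon mesophyll (53.6%), 12 in young needle vascular tissue (58.4%) and 10 in cotyledon vascular tissue (46.1%). The lowest root value had been chosen to be high, so a count below the background was fixed in direction and is not read as a result. Within a list the libraries can be set beside each other, and in each of the 7 lists the apical meristem had the higher count, from 72 to 91. It also had the highest background, 80.5%, so its higher counts are not read as a trait of these transcripts. For young needles, cotyledons and hypocotyl, the other library of the organ had also stayed in the rule. Emerging needles, the youngest needles sampled, came closest to the apical meristem, at 51 against 72 in the same list. Hypocotyl vascular tissue and young needle vascular tissue form a pair named above, so each was read in a list that the other had helped to choose.

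**Figure D4:**
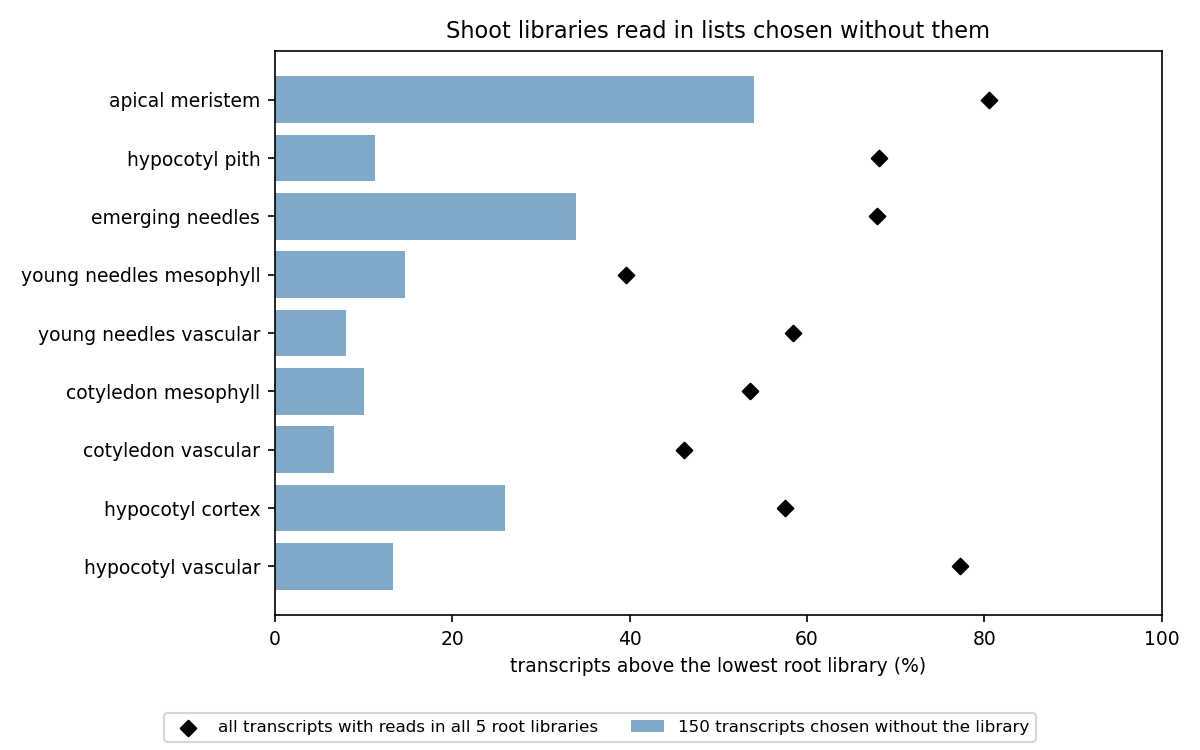
Percentage of 150 transcripts whose value in a library lay above the lowest root library (bars), in a list chosen without that library, with the same percentage over all transcripts with reads in all 5 root libraries (diamonds). The rule chose high root values, which places bars below diamonds. The apical meristem has the longest bar, with 81 of 150, and also the highest diamond.

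The same was done for the 5 root libraries, each read in a list that the other 4 had chosen. Developing root vascular tissue stood above all 7 shoot libraries for 142 of 150 transcripts, where the background was 21.0%. Developing root cortex did so for 138 (20.1%), root meristem for 120 (22.3%), root cortex for 104 (17.9%) and root vascular tissue for 80 (22.5%). The rule had kept the 7 shoot values of these lists low, so a count above the background was fixed in direction and is not read as a result. Among the 5 libraries, those of the mature root had the lowest counts. However, libraries much like the one left out had helped to choose some lists. Over the 7185 transcripts with reads in all 5, developing root cortex had a Spearman correlation of 0.769 with developing root vascular tissue. It had 0.724 with root meristem, whereas root cortex and root vascular tissue had 0.447. The order of the counts is therefore not read as a trait of mature root. In root vascular tissue, the deepest library, 30 of the 150 transcripts chosen without it had no reads. Leaving out root vascular tissue raised the number of eligible transcripts from 227 to 581, the largest rise among the 5 root libraries left out in turn.

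The reverse rule, with every shoot library above every root library and no limits on spread, was met by 212 transcripts. In these the apical meristem lay above all 5 root libraries for 155, and the pith for 209. Among the 3185 transcripts with reads in all 7 shoot libraries the shares were 27.7% and 34.0%. The apical meristem lay below all 7 shoot libraries for 113 of the 212, and the pith for 8, with shares of 14.6% and 4.62% over the 3185. This rule chose low root and high shoot values, so the distance from the shares over all transcripts is not read as a result.

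Within root, the maxima were spread over the 5 libraries on the authors' scale. Root meristem was the highest root library for 38 members (25.3%), root vascular tissue for 37, root cortex for 27, developing root vascular tissue for 26 and developing root cortex for 22. Over the 7185 transcripts with reads in all 5 root libraries these shares were 22.3%, 29.9%, 18.3%, 15.8% and 13.8%. The order of the libraries depended on the scaling. With library totals root meristem was highest for 61 members, developing root vascular tissue for 49, root vascular tissue for 14 and root cortex for 6, and with quantile normalisation root vascular tissue was highest for 16. The lowest root library was most often root vascular tissue, for 41 members (27.3%), as it was over the 7185 transcripts (34.0%). The highest root value, plus 5, was a median 4.01 times the lowest, and the spread was under 4 for 74 members and at least 8 for 21. The rule capped this spread at 16.

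Contrasts within root were fitted with limma across all transcripts past the filter on low values, with Benjamini-Hochberg adjustment. No tissue was replicated, so cortex and vascular tissue stood in as replicates of an organ, and each p-value reflects how tissues or organs scatter rather than seedlings. The rule had limited the spread of the members in these same root libraries, so their fold changes were bounded by the choice and the counts of calls are given without reading anything from them. In developing root against root, 120 members were tested and none passed an adjusted p of 0.05, where 0.206% of 11163 transcripts did. At an unadjusted p under 0.05 there were 2 members higher and 1 lower, and 1181 of all transcripts (10.6%). edgeR called 35 transcripts and DESeq2 249 on the recovered reads, none of them a member. The median log2 fold change of members was -0.04, and that of all transcripts 0.07. With library totals alone these medians were 1.12 and 0.88, so the direction of the members between mature and developing root depends on the scaling.

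The largest values in this contrast were those of isotig32588 and isotig26267. isotig32588 stood at 23.7 CPM in root cortex, 18.4 in root vascular tissue, 298 in developing root cortex, 73.5 in developing root vascular tissue and 317 in root meristem, with no reads outside root. It had a log2 fold change of 2.57 ± 1.21 (SE), with an adjusted p of 0.462 by limma. Both developing root libraries exceeded both root libraries, and developing root cortex was close to root meristem. isotig26267 stood at 198 CPM in root cortex, 201 in root vascular tissue, 10.9 in developing root cortex, 10.4 in developing root vascular tissue and 26.1 in root meristem. It had a log2 fold change of -3.71 ± 1.17 (SE), with an adjusted p of 0.222 by limma. The libraries of mature root stood above the other 3 without overlap. The fit set root against developing root without root meristem, and that difference did not pass the test.

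In vascular tissue against cortex of root and developing root, none of 120 members tested passed, where the background was 0% of 11163 transcripts. At an unadjusted p under 0.05 there were 3 members and 339 of all transcripts. edgeR called no transcript and DESeq2 called 5, of which no member was one. The median log2 fold change was 0.09 for members and 0.00 for all transcripts. unigene30397, given above, had the largest value toward vascular tissue, 2.97 ± 1.28 (SE, limma adjusted p = 1). The largest value toward cortex was that of unigene25564, -2.48 ± 1.06 (SE, limma adjusted p = 1). It stood at 145 CPM in root cortex, 8.50 in root vascular tissue, 40.6 in developing root cortex, 11.4 in developing root vascular tissue and 112 in root meristem. In each of these transcripts the tissue named was higher in both organs.

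Root meristem against the other 4 root libraries set a single library against different tissues. None of 129 members tested passed, where the background was 0% of 7019 transcripts. No member, and 107 of all transcripts, had an unadjusted p under 0.05. edgeR called no transcript and had no member at an unadjusted p under 0.05. DESeq2 called 100 transcripts, none of them a member, and had 6 members and 742 of all transcripts at an unadjusted p under 0.05. The median log2 fold change was 0.14 for members and 0.27 for all transcripts. isotig102744 had the largest value toward root meristem, 2.63 ± 1.40 (SE, limma adjusted p = 0.998), with 171 CPM there. Its other root values were 59.2 CPM in root cortex, 15.6 in root vascular tissue, 21.9 in developing root cortex and 13.5 in developing root vascular tissue. isotig52827 had the largest value in the other direction, -2.33 ± 1.43 (SE, limma adjusted p = 0.998), with 26.7 CPM in root meristem and 77.0, 119, 200 and 309 CPM in the other root libraries in the same order. The root meristem had the highest value of the first and the lowest of the second.

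**Figure D5:**
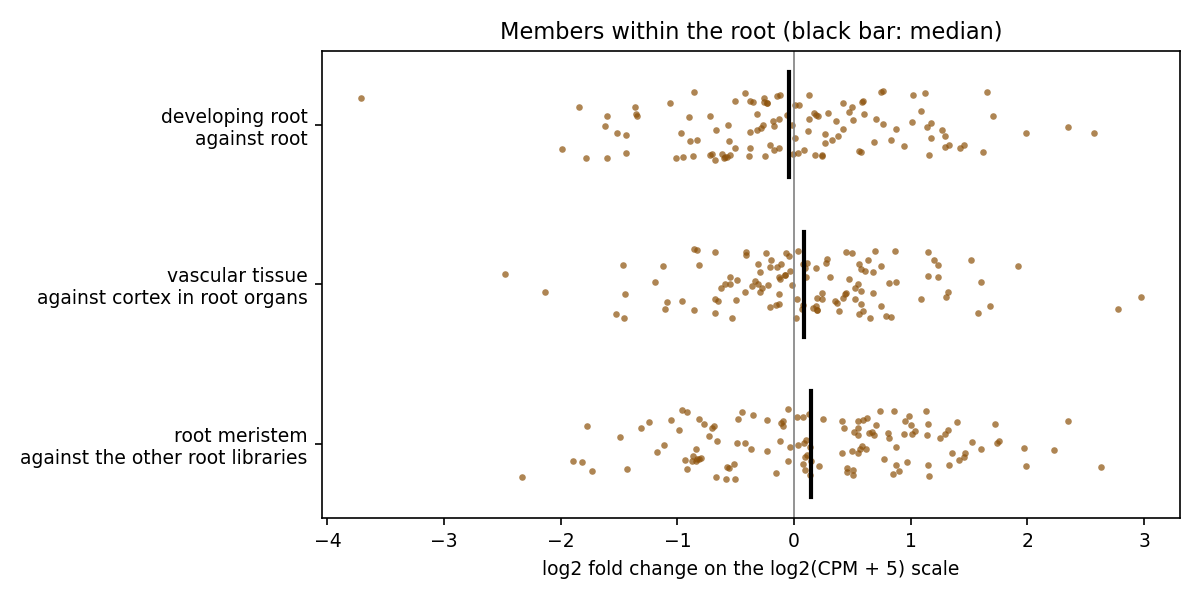
Log2 fold change of each tested member, on the log2(CPM + 5) scale, in 3 contrasts within root (120, 120 and 129 points), with black bars at the medians. The medians lie at -0.04, 0.09 and 0.14, and the rule bounded the range of the points.

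Members ranged less within root than other transcripts, as the rule required. The median absolute log2 fold change was 0.59 for members and 1.08 for all transcripts in developing root against root, 0.53 and 0.69 in vascular tissue against cortex, and 0.77 and 0.95 in root meristem against the rest. The median standard error of members was 1.28, 1.25 and 1.37 in the 3 contrasts, so a change within the limits of the rule could go undetected here.

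The order of levels across members was also compared between libraries. Between a root and a shoot library of the rule, the Spearman correlation across the 150 members ran from 0.499 for cotyledon vascular tissue with developing root vascular tissue to 0.799 for emerging needles with root meristem. Over the 7185 transcripts with reads in all 5 root libraries the same pairs had 0.322 and 0.596. The apical meristem correlated across members at 0.848 with emerging needles, 0.789 with root meristem and 0.755 with pith, and across the 7185 at 0.364, 0.607 and 0.402. The rule put every shoot value of a member below its lowest root value and capped the root spread, which ties its levels together. The higher correlations across members are therefore not read as a result. All these correlations describe the libraries, since transcripts are not independent replicates and libraries may share seedlings. By name, 95 members were isotigs (63.3%, against 68.5% of the table), 52 were unigenes (34.7% against 30.6%) and 3 were PUT identifiers.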

How the data were processed

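The deposited table holds, per the file headers, 1 column for each of 14 libraries. FastQC, BWA and edgeR are named, with no version, per the submitters' processing notes. The assembly that reads were mapped to was not given in the sources used here. Plain CPM had been assumed, but in the deposited signal the library size carries a scaling factor. Dividing each column by the size of 1 read gave whole numbers throughout (tolerance 0.001), so reads were recovered. Factors computed from them by the trimmed mean method (TMM, edgeR 4.0.16) matched to a relative 1.01e-10.

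Levels were compared as log2(CPM + 5). Tests used limma 3.58.1 in R 4.3.3, keeping transcripts that reached 10 CPM in 3 or more of the fitted libraries, and a Benjamini-Hochberg adjusted p under 0.05. Recovered reads were also tested with edgeR (quasi-likelihood) and DESeq2 1.42.0. The limma fit was also run on simulated data with large changes in abundant transcripts, which does not tell what it could detect in the members. Fold changes on this scale understate the change of low transcripts. Scripts ran in Python 3.11.15.

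Alternatives changed the added constant, the filter, the scaling, the depth, the limits of the rule and the libraries used. The library pairs, and the lists with a library left out that was then read, were chosen after seeing the data.

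Members, comparisons and lists were chosen with earlier results of these data known. Named transcripts followed a rule: the 2 highest scores, the last transcript in and the first out, the 2 with the most root reads, the 2 highest in apical meristem and in pith, and the largest fold change in each direction within root. No gene lists or markers could be used, and no sequences are shown.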

Additional observations from a re-analysis of the deposited data

Results flagged for a closer look

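Values of the named members and of the member sum were screened for a library far from the others, in the 5 root and the 7 shoot libraries, 28 sets in all. Chance marks about 1 in 20 such sets of normal values, and members named for large differences are marked more easily. unigene30397 stood at 2214 CPM in root vascular tissue, far above the other root libraries, and at 9.21 CPM in emerging needles, far above the other shoot libraries. Emerging needles also stood apart from the other shoot libraries for unigene25564, at 2.83 CPM, and for isotig102744, at 8.50 CPM. isotig52827 had 3.76 CPM in hypocotyl cortex, which is 1 read, and none in the other 6 shoot libraries of the rule. The summed levels of the members were not marked.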

How the results depend on the processing

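Membership depended on the scaling and on single libraries. With library totals alone 114 transcripts were eligible in place of 227, and 70 of the 150 members were kept; with DESeq2 size factors 145 were eligible. Adding the apical meristem to the shoot side left 93 eligible and 69 members, and adding it with the pith 83 and 66. Leaving out 1 library at a time kept 59 to 137 members with 252 to 581 eligible; without root vascular tissue it was 59, without root cortex 84 and without emerging needles 92. With library totals, the highest root library was root cortex for 6, root vascular tissue for 14, developing root vascular tissue for 49 and root meristem for 61, and with quantile normalisation root vascular tissue for 16. Reads of at least 10 CPM in the pith were held by 53 members. At 2 times, 5 members were higher in the pith than in the apical meristem; with 25 added, 30 were at least 4 times higher in the apical meristem and 1 in the pith. The apical meristem exceeded all root libraries for 11 members with library totals and 17 with quantile normalisation, and the pith the lowest root library for 26 with totals. The apical meristem sum over the pith was 5.47 without the 5 members with the most reads, 6.20 with totals, 5.61 with quantile normalisation and 10.0 with pair reads taken off, when root over pith was 6.92. Over the root mean it was 1.02 with totals and 0.846 with quantile normalisation, and it exceeded 4 root libraries without the 5 members, 2 with totals and 2 with quantile normalisation. Under every alternative fit run, 0 members were called. Apart from the scaling, which sets these values by construction, the cause was not tested. No paired analysis was possible because the groups share only replicate number 1; organ and tissue were already terms in the fits of the 10 cortex, mesophyll and vascular libraries. Root meristem against the rest has no value without that library. Depth limits the 38 members with 3 reads or fewer in a root library.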
